A study of Mus musculus with 2 samples.

Results

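The genes described here encode the proteins of the cytosolic ribosome, whose messenger RNAs supplied between 28.1% and 40.6% of all transcripts counted in the compared groups of mouse eye organoid cells. They were taken by symbol, as Rps or Rpl followed by a number and at most the letter a, x or l, together with Rplp0, Rplp1, Rplp2 and Rpsa, and symbols marked as pseudogenes were left out. This gave 81 of 27998 gene rows, 31 small subunit genes and 50 large subunit genes, and no measured value was used to choose them. Of the 81 genes, 78 had a mean level of at least 50 CPM over both days and 3 (Rpl39l, Rpl10l and Rpl3l) did not. CPM is the number of unique molecular identifiers (UMIs, one per captured RNA molecule) scaled to a total of 1000000 in the summed cells.

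Eye organoids were grown from embryonic stem cells with a heterozygous green fluorescent protein knock-in at Rax, a transcription factor gene of the eye field, and both libraries carried this genotype. Cells were taken on culture day 4, when the eye field forms, and on day 6, when optic vesicles start to bud, and their RNA was counted with the 10x Genomics 3′ v2 kit. The labels give the cells as retina progenitors from a line of Rax-GFP embryonic stem cells and give no treatment other than the culture day. Each day was 1 library in which 3 biological experiments had been pooled, so the day and the library cannot be told apart, no test between them was possible, and every 95% interval below covers counting error only.

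A cytosolic ribosome contains one copy of nearly every ribosomal protein, so these genes are expressed together at high levels in growing cells. Their messenger RNAs start with a pyrimidine tract, the 5′ TOP, through which the mTOR pathway controls their translation. A few mammalian ribosomal protein genes have a second, tissue-restricted copy: Rpl10l and Rpl39l are known from the male germ line, where they stand in for the X-linked Rpl10 and Rpl39, and Rpl3l is known from striated muscle.

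Among these copies Rpl39l had the highest level and differed widely between cell groups. The coding sequences of Rpl39 and Rpl39l are shown because the 2 genes were counted apart and followed different patterns. Both are given on the coding strand, 5′ to 3′, from the GENCODE annotation of build GRCm38 (mm10), with the bases that differ between the 2 genes in capitals. Rpl39 lies on the minus strand of chromosome X, where its coding exons span chrX:37082701-37085127 with introns that are spliced out here. Rpl39l lies on the plus strand of chromosome 16, where its coding sequence is 1 uninterrupted exon segment at chr16:10174310-10174465.
Rpl39: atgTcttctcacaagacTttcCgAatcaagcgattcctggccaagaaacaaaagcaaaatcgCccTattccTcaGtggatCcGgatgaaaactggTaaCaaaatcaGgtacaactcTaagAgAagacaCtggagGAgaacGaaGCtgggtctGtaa
Rpl39l: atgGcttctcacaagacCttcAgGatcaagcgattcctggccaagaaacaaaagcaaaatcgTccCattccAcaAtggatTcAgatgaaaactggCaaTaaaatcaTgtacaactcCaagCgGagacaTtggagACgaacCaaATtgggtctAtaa
Of the 156 bases, 133 (85.3%) were identical and 23 differed. The differences fell in 21 codons and changed 3 of 51 residues. No stretch of 31 bases in the last 400 bases of an Rpl39l transcript was found in another annotated gene. Reads of that length within this end had no second annotated home. The rest of the transcript was not searched, and the 2 coding sequences above share a run of more than 31 identical bases.

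The day 4 library held 8147 cells and 98643495 UMIs after filtering, and the day 6 library 6640 cells and 87794318 UMIs. Median depth was 11216 UMIs on day 4 and 12515.5 on day 6, and the median mitochondrial share was 2.998% and 2.476%. The libraries shared 91 barcode sequences. Cells were grouped by raw UMIs of a single marker: at least 10 of Dppa5a (a pluripotency gene), 3 of Fgf5 (primed epiblast), 2 of Six6 (optic vesicle), 10 of Col4a1 (basement membrane collagen) or 1 of Sox10 (neural crest). Only 25 cells reached the planned 2 UMIs of Sox10. For the Sox10 group and its comparison with Six6 cells 1 UMI was therefore used, a choice made after the data were seen. All other groups were formed with Sox10 at 2 UMIs. Cells with 1 Sox10 UMI and no other threshold reached were therefore also counted among the cells that reached no threshold. Cells that reached several thresholds, 367 on day 4 and 119 on day 6, were kept apart because they may hold more than one cell, and doublets were not called.

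Other markers of the same cell types followed these groups, with the grouping gene left out of each sum. The summed level of 8 further pluripotency markers was 1129 CPM in Dppa5a cells of day 4 and 1062 CPM in those of day 6, against 57.4 CPM in Fgf5 cells and 4.66 CPM in Six6 cells. The 5 further epiblast markers summed to 1847 CPM in Fgf5 cells and, less far apart, to 1369 CPM in Dppa5a cells of day 4. The 5 further optic vesicle markers reached 878 CPM in Six6 cells against 450 CPM in the 3946 unmarked cells of day 6, and the 6 further neural crest markers 482 CPM in Sox10 cells against 4.95 CPM in Six6 cells. The 9 further primitive or parietal endoderm markers reached 5456 CPM in Col4a1 cells of day 6 and 51.7 CPM in Six6 cells. The single label retina progenitors was not carried by every group, since the optic vesicle markers other than Six6 summed to 7.16 CPM in Dppa5a cells of day 4.

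Ribosomal protein genes held 36.7% of all UMIs on day 4 (95% Clopper-Pearson interval 36.65 to 36.67) and 33.9% on day 6 (33.92 to 33.94). The difference was -2.72 percentage points. The median cell held 36.3% on day 4 and 33.4% on day 6, and the ranges overlapped widely, with 5 to 95% of cells between 31.2% and 46.1% on day 4 and between 28.6% and 43.2% on day 6. Without the Dppa5a cells and the cells of several markers, an alternative chosen after the data were seen, the difference was -2.47 points. Small subunit genes supplied 16.1% of UMIs on day 4 and 15.0% on day 6, and large subunit genes 20.6% and 18.9%, so both subunits were lower on day 6. The order was different for UMIs per cell. The median cell held 4101 ribosomal protein UMIs and 7077 other UMIs on day 4, and 4229 and 8247 on day 6. These counts also depend on depth, with a median of 11216 UMIs per cell on day 4 and 12515.5 on day 6. They therefore do not tell whether ribosomal protein RNA or other RNA per cell differed.

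Dppa5a and Col4a1 cells differed from the other groups of their day by more than the days differed, while Sox10 and Six6 cells of day 6, and Fgf5 and unmarked cells of day 4, differed by less. On day 4 the 1240 Dppa5a cells held 40.6% ribosomal protein UMIs and the 2205 Fgf5 cells 35.2%, while the 4298 cells that reached no threshold held 36.3%. On day 6 the share was 40.3% in 457 Dppa5a cells, 32.4% in 1986 Six6 cells, 33.3% in 63 Sox10 cells, 28.1% in 83 Col4a1 cells and 34.0% in 3946 cells without a marker. The Dppa5a cells thus stood highest and the Col4a1 cells lowest among the groups of at least 50 cells. The 14 Col4a1 cells of day 4 held 24.8% and were too few for a comparison. The median Dppa5a cell of day 4 held 4419 ribosomal protein and 6417 other UMIs against 4799 and 8701 in the median Fgf5 cell, whereas on day 6 it held 5617 and 8335 against 4241 and 8718 in the median Six6 cell. The median Col4a1 cell of day 6 held 2749 and 7196. The median Dppa5a cell thus held more ribosomal protein UMIs than the median Six6 cell on day 6 and fewer than the median Fgf5 cell on day 4. The median cell that reached no threshold held 3705.5 ribosomal protein and 6361.5 other UMIs on day 4, and 4100.5 and 7958 on day 6. Against those cells the median Dppa5a cell held more ribosomal protein UMIs on both days. UMIs per cell also depend on how well a cell was captured.

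**Figure D1:**
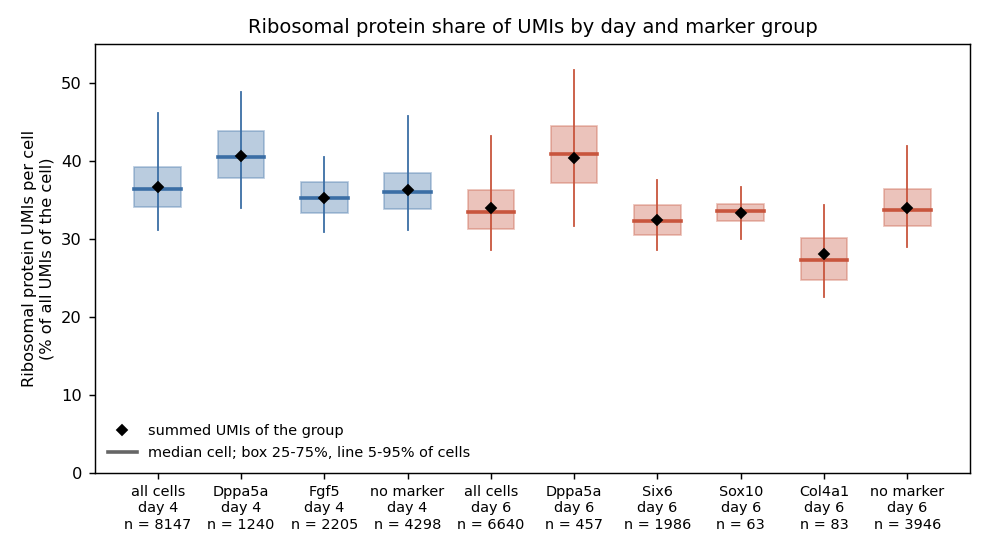
Ribosomal protein share of each cell's UMIs (vertical axis, %) by marker group and day, with day 4 in blue and day 6 in red. Boxes give the middle 50% of cells, lines 5 to 95%, bars the median cell and diamonds the summed UMIs: the Dppa5a groups sit at 40.6% and 40.3% and the Col4a1 group at 28.1%.

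The share was also taken along the count of each marker, over all kept cells of a day. A bin of 1 marker can thus hold cells of other marker groups, and the orders below are not independent of each other. On day 4 it was 35.6% in cells without a Dppa5a UMI, 37.3% at 5 to 9 UMIs and 39.8% at 10 or more, and on day 6 the same bins held 33.3%, 36.8% and 39.2%. Along Six6 on day 6 the order was the opposite: 34.9% at 0 UMIs, 33.5% at 1, 32.9% at 2 to 4, 31.9% at 5 to 9 and 30.8% in the 127 cells with 10 or more. Along Fgf5 on day 4 the share went from 38.2% at 0 UMIs to 35.3% at 10 or more, while the median depth of those bins went from 9532 to 19814 UMIs. On day 6 it went the other way, from 33.8% at 0 Fgf5 UMIs to 37.1% at 1 and 40.5% at 2 to 4, and was 38.9% at 5 to 9 and 38.2% in 9 cells with 10 or more. Along Col4a1 on day 6 it showed no steps up to 9 UMIs, at 33.9% to 35.3%, and was 29.5% at 10 or more.

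Depth moved with the share. On day 4 it was 38.6% in cells under 8000 UMIs and 35.6% in cells of 20000 or more, and on day 6 36.0% and 33.0%. Within each of 5 depth ranges, however, Dppa5a cells stood above Fgf5 cells on day 4, from 42.4% against 36.4% below 8000 UMIs to 39.4% against 34.9% at 20000 or more. They stood above Six6 cells on day 6 in the same 5 ranges, from 43.9% against 33.9% to 38.3% against 31.8%. Cells with under 0.5% mitochondrial UMIs, 339 on day 4 and 210 on day 6, held 43.2% and 43.9% ribosomal protein UMIs, and without them the difference between the days was -2.75 points.

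The 5 genes with the highest mean level were Rpl41, Rps19, Rpl32, Rps18 and Rps27a. Rpl41, which encodes the smallest ribosomal protein, stood at 13111 CPM in the day 4 library and at 9740 CPM in that of day 6, or 159 and 129 UMIs per cell. Rps19, a small subunit gene known from Diamond-Blackfan anaemia, stood at 8827 and 8060 CPM. Rpl32 measured 8519 and 8231 CPM, Rps18 8693 and 7629 CPM, and Rps27a, whose product is made as a fusion with ubiquitin, 8129 and 8192 CPM. Together these 5 supplied 12.9% of ribosomal protein UMIs on day 4 and 12.3% on day 6. The kit counts 1 end of each molecule, so levels were not divided by gene length. Of the 81 genes, 74 exceeded 1000 CPM.

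Single members were then compared with the group. For each gene the ratio of CPM between groups was taken, and a member was said to depart when its ratio lay at least 25% above or 20% below that of the median member. Between day 6 and day 4 the median of 78 members was -0.07 on the log2 scale, against 0.11 over all 2318 genes at 50 CPM or more. The members lay closer together (SD 0.22) than all genes did (SD 0.54), and 13 members (16.7%) departed, against 32.2% of all genes from their own median. By the plain ratio, 12 members were at least 20% lower on day 6, against 11.7% of all genes, and 2 were at least 25% higher, against 24.8%.

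The 3 members that departed upwards were Rpl29, Rps2 and Rpl6l. Rpl29, a large subunit gene that was the lowest of the 78, went from 43.0 to 66.9 CPM, a ratio of 1.56 (1.496 to 1.620). Rps2, a small subunit gene, measured 3156 CPM and 4112 CPM, a ratio of 1.30. Rpl6l, a copy of Rpl6 with no coding model in the annotation used, measured 152 and 182 CPM. In the last 400 bases of the transcript, 30.5% of 90-base windows were unique to Rps2 and 48.9% to Rpl29, so reads of both can be split with other copies and their levels are uncertain.

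The 10 members that departed downwards were Rps28, Rps27, Rpl37, Rps29, Rpl37a, Rpl36, Rps21, Rpl38, Rpl41 and Rps27l. Rps28, a small subunit gene, had the lowest ratio, 0.625 (0.622 to 0.628), and the other 9 had ratios between 0.680 and 0.7503. Rpl37a, a zinc finger protein of the large subunit, had a ratio of 0.710, and Rps27l, the p53-responsive copy of Rps27, had 0.7503 where Rps27 itself had 0.680. Of the 90-base windows at the end of Rps27, 1.56% were unique. Without the Dppa5a cells and the cells of several markers, 13 members again departed, 3 upwards and 10 downwards, against 33.1% of all genes.

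**Figure D2:**
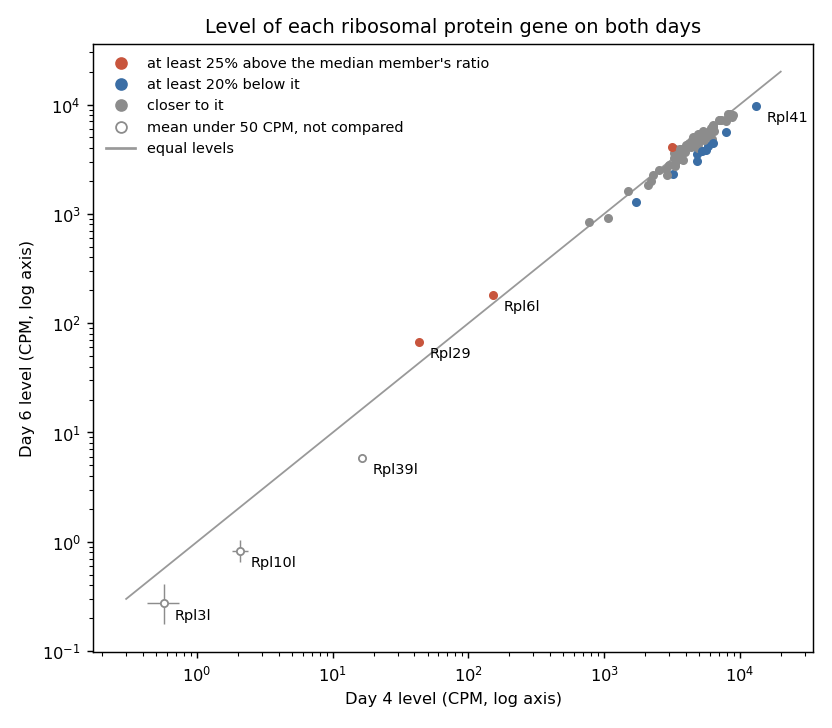
Level of each of the 81 members in the day 4 library (horizontal, CPM, log axis) and the day 6 library (vertical, CPM, log axis), with bars for the 95% Poisson interval of counting. Red points lie at least 25% above the median member's ratio (3 members) and blue points at least 20% below it (10 members), and open points are the 3 members under 50 CPM.

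All 10 members that departed downwards had coding sequences of 318 nt or less, a description chosen after their values were seen. A coding length was found for 80 of the 81 members and ranged from 78 to 1260 nt, with a median of 457.5 nt. Of the measured members, all 10 with under 300 nt were below a ratio of 1, with a median log2 ratio of -0.48. All 27 of 300 to 450 nt were also below 1, with a median of -0.16. Of other genes, 80 of 133 under 300 nt and 120 of 258 of 300 to 450 nt were below 1. The 19 members of 450 to 600 nt had a median of 0.01 and the 18 of 600 to 900 nt a median of 0.05. Spearman's rho between the day ratio and coding length was 0.79 over 77 members and 0.17 over 2211 other genes, and all of these genes share the same 2 libraries. Other genes under 300 nt, 133 in number, had a median of -0.09 against 0.18 in those of 900 to 1500 nt.

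The relation to length was found in each comparison that set the 2 libraries against each other. Between Six6 cells of day 6 and Fgf5 cells of day 4, rho was 0.80 over 77 members. Between Dppa5a cells of day 6 and of day 4 it was 0.68 over 78 members. Within a library it was 0.20 for Dppa5a over Fgf5 cells of day 4, -0.03 for Dppa5a over Six6 cells of day 6 and -0.16 for Sox10 over Six6 cells, and for Col4a1 over Six6 cells of day 6 it was -0.68. The first 3 of these within-library values thus lay between -0.16 and 0.20, and the last had the opposite sign to the values between libraries. The day and the library cannot be told apart in the first group of values.

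**Figure D3:**
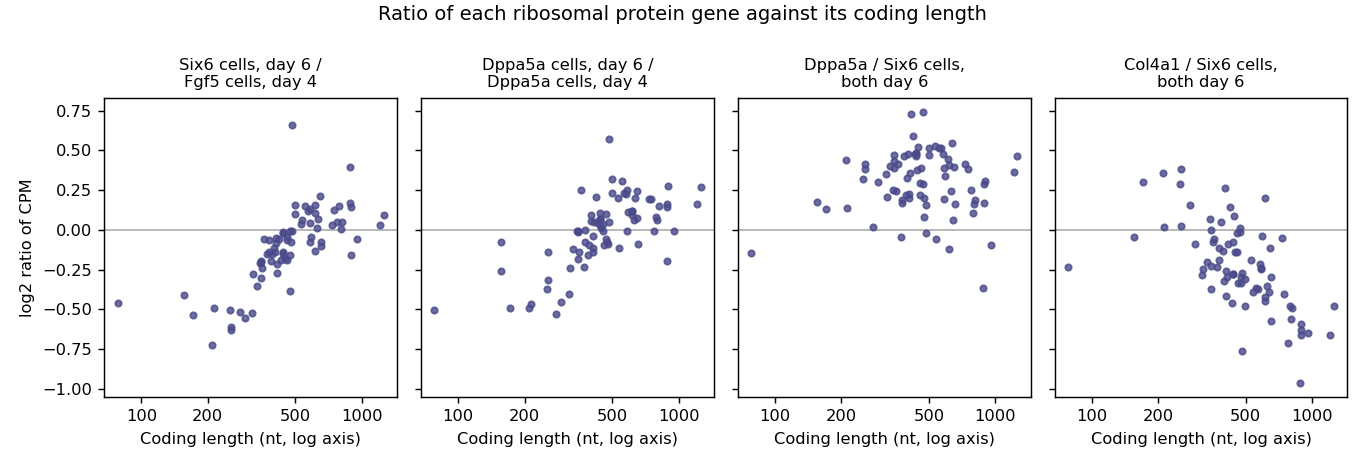
Log2 ratio of CPM of each measured member (vertical) against its coding length (nt, log axis) in 4 comparisons. In the 2 left panels, which set day 6 against day 4, short members lie below 0; Dppa5a against Six6 cells of day 6 shows no such slope, with rho -0.03, and Col4a1 against Six6 cells slopes the other way, with rho -0.68.

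As a share of UMIs, nearly every ribosomal protein RNA was higher in Dppa5a cells. Of 77 members measured on day 4, 72 were higher in Dppa5a than in Fgf5 cells, with a median log2 ratio of 0.20 where all 2174 genes had -0.27. By the plain ratio 12 members were at least 25% higher, against 11.3% of all genes, and 0 were at least 20% lower, against 43.5%. A single member (1.30%) departed from the median member, against 41.5% of all genes. It was Rplp0, which encodes the base of the ribosomal stalk and measured 2328 CPM in Dppa5a cells and 2571 CPM in Fgf5 cells, a ratio of 0.905 (0.894 to 0.917). Its departure was -0.34 on the log2 scale, just past the limit of 0.32, and in cells of 10000 to 15000 UMIs it was -0.30, inside the limit. In those cells 1 member departed, which was thus a member other than Rplp0.

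On day 6 the Dppa5a cells were set against Six6 cells. The median of 78 members was 0.32, against -0.35 over all 2297 genes, and 71 members were higher in Dppa5a cells. By the plain ratio 39 members were at least 25% higher, against 15.0% of all genes, and 1 was at least 20% lower, against 52.4%. Here 9 members (11.5%) departed, 2 upwards and 7 downwards, against 56.8% of all genes. Rpl23a measured 3416 CPM in Dppa5a cells and 2039 CPM in Six6 cells, a ratio of 1.68, and Rpl28 4778 and 2882 CPM, a ratio of 1.66. Both are large subunit genes, and 14.5% of the end windows of Rpl23a but 100% of those of Rpl28 were unique.

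Among the 7 members that departed downwards, Rps2 lay farthest out, at 3232 CPM in Dppa5a cells and 4169 CPM in Six6 cells, a ratio of 0.775 (0.764 to 0.787). It was thus lower in the cells that held more of the other members. Rpl41 had a ratio of 0.903, Rpl15, a large subunit gene, 0.919 and Rplp0 0.935. On day 4 the departure of Rplp0 had the same direction.

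The Six6 cells of day 6 against the Fgf5 cells of day 4 combined a change of cell group with the change of library. The median of 78 members was -0.08 and 14 members (17.9%) departed, 3 upwards and 11 downwards, against 41.4% of all genes. By the plain ratio 13 members were at least 20% lower, against 15.0% of all genes. Rpl29 (ratio 1.58), Rps2 (1.31) and Rpl6l (1.22) stood highest. Rps28 (0.606), Rps27l (0.646), Rps27 (0.656) and Rpl37 (0.680) stood lowest.

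Between Dppa5a cells of the 2 days the summed share differed by -0.26 points, from 40.6% to 40.3%, and this sign turned when other depths of cell were used. The median of 79 members was 0.03, and 10 members (12.7%) departed, 1 upwards and 9 downwards, against 24.3% of all genes. Rpl29 was the member that departed upwards, from 45.2 to 67.3 CPM, a ratio of 1.49 (1.32 to 1.68), and it was the only one at least 25% higher, against 12.3% of all genes. Rpl37a (0.692), Rpl41 (0.705), Rps29 (0.711) and Rps28 (0.712) stood lowest, with coding lengths of 78 to 279 nt.

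Sox10 and Six6 cells of day 6 held nearly the same composition. The median of 78 members was 0.02, and 1 member (1.28%) departed, against 28.7% of all genes. That member was Rplp0, at 3285 CPM in Sox10 cells and 2475 CPM in Six6 cells, a ratio of 1.33 (1.28 to 1.37). It was also the only member at least 25% higher by the plain ratio, against 12.4% of all genes. The Sox10 group held 63 cells, whose median depth of 15768 UMIs was above the 12956 UMIs of the Six6 cells.

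Col4a1 cells differed most in composition. Against Six6 cells of day 6 the median of 78 members was -0.24, against -0.10 over all 2654 genes, and 29 members were at least 20% lower by the plain ratio, against 38.2% of all genes. In all 18 members (23.1%) departed, 9 upwards and 9 downwards, against 71.1% of all genes. Rps27l measured 1490 CPM in Col4a1 cells and 1143 CPM in Six6 cells, a ratio of 1.30 (1.23 to 1.37). Rps28 (1.28), Rps29 (1.23) and Rps21 (1.22) followed, all of them small subunit genes.

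Rps2 again departed most in the other direction, at 2136 CPM in Col4a1 cells and 4169 CPM in Six6 cells, a ratio of 0.512 (0.490 to 0.535). Rpl29 had a ratio of 0.589, Rpl8 of 0.611 and Rpl3, which lies at the peptidyl transferase centre, of 0.632. The median member under 300 nt was higher in Col4a1 cells, at 0.09, and the median of the 18 members of 600 to 900 nt was -0.47. The Col4a1 cells held 4.69% mitochondrial UMIs and a median of 9845 UMIs, against 2.40% and 12956 UMIs in Six6 cells, and 171 CPM of 8 dissociation stress markers against 83.5 CPM. The part of these differences in the result was not tested. The comparisons of Dppa5a and Col4a1 cells with Six6 cells share the same 1986 Six6 cells. The comparison of Sox10 cells used 1981 of them, because Sox10 was set at 1 UMI there.

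**Figure D4:**
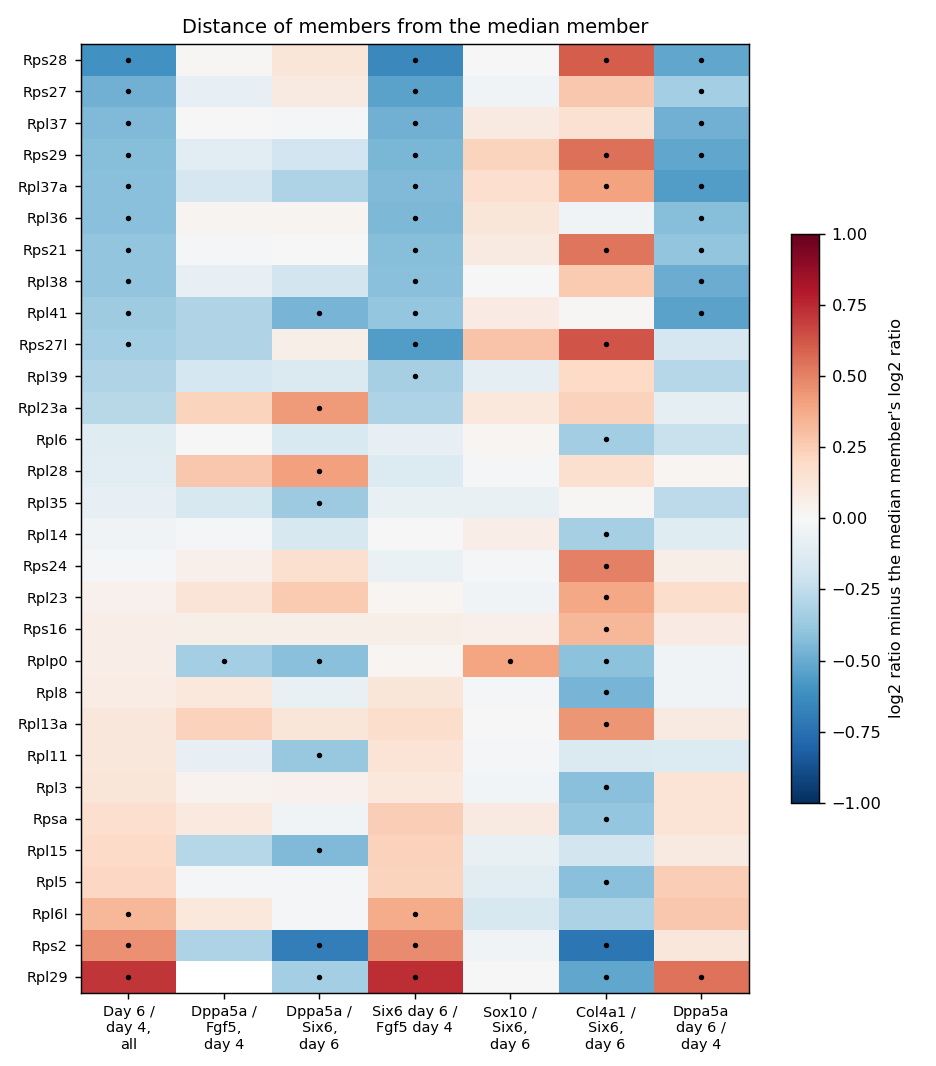
Distance of members from the median member (colour, log2) in 7 comparisons, for the 30 members that departed in at least 1 of them. A black dot marks a departure (25% above or 20% below) and white without a dot can also mean not measured, as for Rpl29 in Dppa5a over Fgf5 cells; between the days the upper 10 rows are blue, and in Col4a1 over Six6 cells several of them are red.

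Rps2 departed both within a library and between the 2, and Rplp0 in comparisons within a library. As shares of all ribosomal protein UMIs, Rpl29, Rps2 and Rplp0 had the widest ranges over 8 groups of cells among the members above 50 CPM, at 1.89-fold, 1.78-fold and 1.76-fold. The narrowest belonged to Rps9, at 1.09-fold. Rps2 was highest as a share in Six6 cells of day 6 and lowest in Dppa5a cells of day 4, and Rplp0 was highest in Sox10 cells and lowest in Col4a1 cells of day 6.

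Both subunits had similar medians. Between the days the median log2 ratio was -0.09 for 31 small subunit genes and -0.06 for 47 large subunit genes. It was 0.20 for both subunits in Dppa5a over Fgf5 cells of day 4, and 0.38 and 0.30 in Dppa5a over Six6 cells of day 6. Of the 18 members that departed in Col4a1 cells, 8 belonged to the small and 10 to the large subunit, but the directions were not alike. Among the small subunit genes, Rps16, Rps21, Rps24, Rps27l, Rps28 and Rps29 departed upwards and Rps2 and Rpsa downwards. Among the large subunit genes, Rpl13a, Rpl23 and Rpl37a departed upwards and the others downwards.

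Rpl39l was highest in Dppa5a cells. In Dppa5a cells its level was 61.7 CPM (57.8 to 65.9) at day 4 and 58.5 CPM (52.8 to 64.6) at day 6. In Fgf5 cells of day 4 it was 5.44 CPM, in cells without a marker 6.75 and 1.42 CPM on the respective days, and in Six6 cells 0.218 CPM, from 6 UMIs in 1986 cells. No UMI was found in 63 Sox10 cells, where 3 counts would be 2.99 CPM and the interval reached up to 3.68 CPM. In Col4a1 cells of day 6 it was 6.34 CPM, from 6 UMIs, with an interval of 2.33 to 13.8 CPM. The 2 Dppa5a groups stood above all others and did not differ beyond their intervals, with a ratio between the days of 0.948 (0.839 to 1.07).

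The ratio of Rpl39l in Dppa5a cells was 11.4 (9.63 to 13.5) over Fgf5 cells of day 4 and 268 (122 to 734) over Six6 cells of day 6. With 3 counts in place of 0 in Sox10 cells it was 19.6 over those cells, a value that leaves out counting error. Over the Fgf5 and Six6 cells Rpl39 had ratios of 1.01 and 1.13. Cells with at least 10 Dppa5a UMIs made up 19.7% of the day 4 library and held 70.2% (67.9 to 72.4) of its Rpl39l UMIs. In the day 6 library they made up 8.66% and held 83.5% (80.0 to 86.6).

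The level was higher in cells with more Dppa5a. On day 4 it was 3.20 CPM at 0 Dppa5a UMIs, 6.77 CPM at 2 to 4, 22.8 CPM at 5 to 9, 39.6 CPM at 10 to 19 and 61.9 CPM at 20 or more. On day 6 it was 0.365 CPM at 0, 5.05 CPM at 2 to 4 and 33.5 CPM at 5 to 9, then 18.6 CPM at 10 to 19 and 57.0 CPM at 20 or more, so the order was broken once. Rpl39 lay between 6178 and 6383 CPM in all day 4 bins, and on day 6 it went from 4723 CPM (4706 to 4740) at 0 to 5307 CPM (5254 to 5362) at 20 or more, with overlapping intervals between some neighbouring bins. Free RNA was left in, and its part in the low levels outside Dppa5a cells was not tested. Beside the 5.44 CPM of Rpl39l in Fgf5 cells, the 8 pluripotency markers other than Dppa5a stood at 57.4 CPM there, and beside its 0.218 CPM in Six6 cells at 4.66 CPM.

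**Figure D5:**
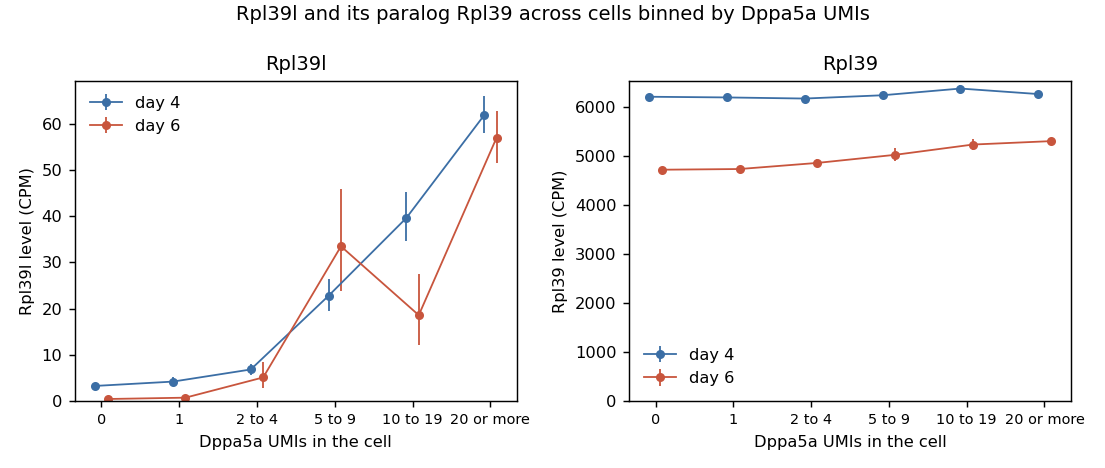
Level (CPM, vertical axes from 0) of Rpl39l (left) and Rpl39 (right) in cells binned by their Dppa5a UMIs, for day 4 (blue) and day 6 (red), with 95% Poisson intervals of counting. Rpl39l goes from 3.20 to 61.9 CPM on day 4 and from 0.365 to 57.0 CPM on day 6, while Rpl39 lies between 6178 and 6383 CPM on day 4 and goes from 4723 to 5307 CPM on day 6.

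Over all cells Rpl39l went from 16.5 to 5.81 CPM, and the share of cells with at least 1 of its UMIs from 11.0% to 3.07%. Dppa5a cells were 15.2% of cells on day 4 and 6.88% on day 6. Without the Dppa5a cells and the cells of several markers, the level went from 6.21 to 1.06 CPM.

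Rpl10l followed the same groups at a lower level. It measured 8.33 CPM (6.91 to 9.95) in Dppa5a cells of day 4 and 7.29 CPM (5.38 to 9.67) in those of day 6, against 0.604 CPM in Fgf5 cells, a ratio of 13.8 (8.46 to 23.7). No UMI was found in 1986 Six6 cells. With 3 counts in place of 0 there, the level in Dppa5a cells of day 6 was 66.8-fold higher, a value that leaves out counting error. In Col4a1 cells it was 5.29 CPM, from 5 UMIs, with an interval of 1.72 to 12.3 CPM. The X-linked Rpl10 measured 3356 CPM in Dppa5a and 3290 CPM in Fgf5 cells of day 4, although none of its end windows was unique. Rpl3l was lower still but ran the same way, at 1.93 CPM (1.28 to 2.79) in Dppa5a and 0.350 CPM (0.175 to 0.626) in Fgf5 cells of day 4, a ratio of 5.51 (2.66 to 12.3). On day 6 it was 1.52 CPM in Dppa5a cells, from 10 UMIs, and 0.146 CPM in Six6 cells, from 4 UMIs, a ratio of 10.4 (3.01 to 45.6).

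Promoters were available from RefSeq (build GRCm38.p6) for 60 members, as 250 bases before and 50 after the start. The letters CCGGAAG were present on either strand in 25 of them (41.7%), against 9.86% of 26965 other genes. The pyrimidine-rich letters CTTTCC were present in 32 (53.3%), against 29.3%. The Rpl39l promoter held both.

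Other genes of ribosome production were described by fixed lists. Between the days, the 21 translation factors and other genes with 5′ TOP messenger RNAs had a median log2 ratio of 0.19, 4 were at least 25% higher (all genes 24.8%) and none was at least 20% lower (all genes 11.7%). Eif3e, an initiation factor subunit, went from 497 CPM on day 4 to 689 CPM on day 6, and Tpt1 from 2996 to 3792 CPM. The members' median was -0.07 in the same comparison. Of 18 measured nucleolar assembly genes 1 was higher, Fbl (the methyltransferase fibrillarin, 283 and 377 CPM), and 2 were lower, Nop10 (679 and 476 CPM) and Nhp2 (668 and 514 CPM). Of 10 measured RNA polymerase I genes 1 was lower, Polr2k (144 and 113 CPM). Among 3 measured genes of the Myc family and the mTOR pathway, Rheb was higher (168 and 220 CPM) and Eif4ebp1 lower (482 and 329 CPM). Of 62 mitochondrial ribosomal protein genes 5 were higher and 11 lower, with a median of -0.05 against 0.11 over all genes, and Mrps34 (118 and 77.1 CPM) lay farthest out.

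In Dppa5a cells the lists were compared in the same way. Over Fgf5 cells of day 4 the nucleolar assembly genes had a median of -0.26, with 7 of 18 lower and none higher, among them Ncl (nucleolin) and Nop56, while the members had 0.20 and all genes -0.27, with 43.5% of all genes lower. Over Six6 cells of day 6 their median was -0.40, with 12 of 18 lower and none higher, where all genes had -0.35 and 52.4% were lower. Mitochondrial ribosomal protein genes had medians of -0.16 and -0.22 in the same comparisons, with 18 of 59 and 22 of 60 lower and 3 and 9 higher. The 5′ TOP list had medians of 0.05 and -0.09. RNA polymerase I genes had medians of -0.19 and -0.31. The few measured genes of the Myc family and the mTOR pathway, 4 on day 4 and 3 on day 6, had medians of 0.11 and 0.27, nearer to the members. In Col4a1 over Six6 cells the 21 5′ TOP genes had a median of -0.43 with 12 lower and 1 higher, and 14 of 17 nucleolar genes were lower with a median of -0.84, where 38.2% of all genes were lower.

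Symbols that the rule did not take followed the same lines. Rps3a1, the gene of the small subunit protein RPS3A, went from 2945 to 3313 CPM between the days, a ratio of 1.12. Rpl22l1, a copy of Rpl22, had a ratio of 0.862, Rpl36al of 0.689 and Rps27rt, a copy of Rps27, of 0.714. Fau, which encodes a ubiquitin-like fusion to RPS30, had 0.901.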

How the data were processed

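The data are 2 libraries of single-cell RNA, 1 per culture day, each a pool of 3 biological experiments. Each deposited matrix gives unnormalized UMI counts for every pair of gene and barcode, made by the authors on build mm10. Cell Ranger 2.0.1 and Seurat 2.3.4 are the tools in the submitters' processing notes, and the methods of the study name other versions. No sample of a replicate could be told apart.

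Cells were filtered with the study's stated limits on genes (500 to 5000), UMIs (500 to 26000) and shares of mitochondrial (at most 10%), ribosomal protein (at least 20%) and haemoglobin counts (at most 0.5%), with the 81 members taken for the ribosomal limit. This kept 8147 of 9114 and 6640 of 7446 barcodes, with 4636 to 25998 UMIs per cell on day 4 and 5105 to 25978 on day 6. Below the ribosomal limit lay 4 barcodes on day 4 and 12 on day 6, of which 4 and 9 failed no other limit. No doublet caller was run and free RNA was left in.

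The level of a gene was its summed UMIs in a group as CPM of all UMIs there (Python 3.11.15, NumPy 2.4.6, SciPy 1.17.1, pandas 2.3.3). Levels carry exact Poisson, ratios exact conditional binomial and shares Clopper-Pearson 95% intervals, all of them for counting error alone. No p-value was computed, since a day was 1 library. Groups under 50 cells and genes under a mean of 50 CPM were not compared. For a fold over a group at 0, that level was replaced by 3 counts. The calculation was checked on simulated counts with known changes.

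The text names the 5 members with the highest mean level, those under 10 CPM, up to 10 departing members on each side between the days and up to 4 in each comparison of marker groups, paralog pairs, symbols left out by the rule, and up to 4 genes of each list with the largest log2 ratio between days. Naming Ncl and Nop56 was decided after their values had been seen. The members, markers and lists were chosen with earlier results of these data known. Coding lengths and shared stretches of 31 bases came from GENCODE M21 transcripts, with windows of 90 bases over the last 400. Alternatives covered the cell filter, depth, marker thresholds, totals, member list, departure limit, reference and minimum level. Some items are not reported here.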

Additional observations from a re-analysis of the deposited data

Results flagged for a closer look

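Barcodes above the UMI limit took no part in any comparison. They held 36.1% ribosomal protein UMIs on day 4 (960 barcodes) and 33.7% on day 6 (792 barcodes), close to the 36.7% and 33.9% of the kept cells of each day.

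The 16 rows whose symbols mark ribosomal protein pseudogenes were left out by the rule. They held 0.140% of all UMIs on day 4 and 0.160% on day 6. The highest of them, Rps12-ps3, measured 359 and 383 CPM. Whether these UMIs came from the pseudogenes or from the parent genes was not tested.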

How the results depend on the processing

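No paired analysis was possible because each day was 1 library of pooled experiments, and for the same reason no replicate could be left out. All values are differences in percentage points or counts of departing members, and the cause of each shift was not tested. The difference of -2.72 between the days kept its sign: -2.66 without a cell filter, -2.75 without cells under 0.5% mitochondrial UMIs, -2.61 in cells of 10000 to 15000 UMIs, -2.80 as a mean over cells, -2.98 with totals without mitochondrial genes, -2.81 with 6 further symbols and -2.47 without Dppa5a and mixed cells.

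Dppa5a over Fgf5 cells gave 5.22 without a filter, 4.82 at 10000 to 15000 UMIs, 5.58 as a mean over cells, 5.41 without mitochondrial genes and 4.97 with higher marker thresholds, against 5.36. Dppa5a over Six6 cells gave 7.02 without a filter, 7.87 without cells under 0.5% mitochondrial UMIs, 8.68 at 10000 to 15000 UMIs, 8.40 without the deepest 5% of cells, 8.39 as a mean over cells, 8.30 without mitochondrial genes, 8.06 with further symbols and 7.68 with lower thresholds, against 7.96. Six6 over Fgf5 cells gave -2.88 without a filter, -2.73 at 10000 to 15000 UMIs, -2.83 without the deepest cells, -2.81 as a mean over cells, -3.20 without mitochondrial genes, -2.96 with further symbols, -2.52 with lower and -3.15 with higher thresholds, against -2.86. Sox10 over Six6 cells gave 0.635 without a filter, 1.28 without the deepest cells and 0.660 with lower thresholds, against 0.903. Col4a1 over Six6 cells gave -4.44 without a filter, -4.65 without the ribosomal limit, -4.72 without the deepest cells and as a mean over cells, -3.71 without mitochondrial genes, -4.40 with further symbols, -4.85 with lower and -3.52 with higher thresholds, against -4.28.

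Between the Dppa5a cells of the days the sign turned, to 1.13 at 10000 to 15000 UMIs and 0.187 without the deepest cells. The other settings gave -1.08 without a filter, -0.332 without cells under 0.5% mitochondrial UMIs, -0.000414 as a mean over cells, -0.308 without mitochondrial genes and -0.163 with higher thresholds, against -0.260.

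With a limit of 1.5-fold the departing members were 2 between the days, 0 in Dppa5a over Fgf5, 1 in Dppa5a over Six6, 2 in Six6 over Fgf5, 0 in Sox10 over Six6, 3 in Col4a1 over Six6 and 0 between the Dppa5a cells. In Dppa5a over Fgf5 cells the count of 1 became 3 without a filter, 2 as a mean over cells, 2 with further symbols, 2 at 10 CPM and 4 with no minimum level, and in Sox10 over Six6 cells it became 3 with no minimum level. Of 538 values for single named members under these settings, 538 kept their side of the median member, but 3 came inside the limit of 0.32 (log2). Between the days Rpl41 was at -0.317 and Rps27l at -0.30 when the summed members were the reference, and Rplp0 in Dppa5a over Fgf5 cells was at -0.30 at 10000 to 15000 UMIs. Depth limits Rpl39l, Rpl10l and Rpl3l outside the Dppa5a cells, where some groups held 0 to 6 UMIs.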
